A study of Homo sapiens with 18 samples.

Results

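The genes described here are those for the mitochondrial ribosomal proteins (MRPs). They were taken as the rows of the expression table whose symbol consists of MRPL or MRPS, a number and at most a letter from A to C, giving 77 of the 23399 genes in the table. By symbol, 48 of them belong to the large subunit (MRPL) and 29 to the small subunit (MRPS). Expression was profiled by RNA-seq of ribosome-depleted total RNA in U2OS-MycER cells, which are human osteosarcoma cells that stably carry MycER, a fusion of the Myc transcription factor with the hormone-binding part of the estrogen receptor. MycER is switched on by 4-hydroxytamoxifen (OHT). Cells received a non-targeting siRNA (siCtrl) or an siRNA against RAD21, a subunit of the cohesin ring (siRAD21), together with 400 nM OHT or with ethanol as its control, and were taken 24 or 48 h later. The 18 libraries thus fall into 8 groups, of which siCtrl with and without OHT at 48 h hold 3 libraries and the others hold 2. All groups carry MycER and all were transfected, and the study's methods call the RNA-seq replicates biological without saying how they were grown apart, so the p-values measure the spread between these samples.

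Mitochondrial ribosomes translate the few mRNAs encoded by mitochondrial DNA, which specify core subunits of the respiratory chain complexes and of ATP synthase. Their RNAs come from the mitochondrial genome, whereas every one of their proteins is encoded in the nucleus, made in the cytosol and imported. Part of the MRPs have bacterial homologs and carry the same number as these, and the others are specific to mitochondria. Myc is known to promote the expression of nuclear genes for ribosome and mitochondrial biogenesis, and the comparisons below ask how the MRP mRNAs responded to MycER activation, to the loss of RAD21 and to both.

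Levels are given in eRPKM, exonic reads scaled to exon length and to library depth, which allows genes to be set side by side per length. The libraries held 9647501 to 12678599 exonic reads each. RAD21 itself was at 70.7 ± 2.04 eRPKM (SD, n = 2) in siCtrl and 18.4 ± 0.366 (n = 2) in siRAD21 cells at 24 h, and at 93.1 ± 3.96 (n = 3) and 11.2 ± 0.105 (n = 2) at 48 h. Of the markers of mesenchymal cells, VIM ranged from 105 to 129 eRPKM and SPARC from 60.6 to 86.4. CDH2 ranged from 23.2 to 41.6 and FN1 from 16.4 to 49.8, whereas RUNX2 ranged from 1.9 to 8.5 and COL1A2 was at most at 0.109. Haematopoietic markers summed to between 0.781 and 2.72 eRPKM and endothelial ones to between 0.67 and 1.89. Neural markers summed to between 4.49 and 13.9, with MAP2 at up to 9.89. The epithelial list, led by CLDN4, reached up to 53.9, and the part of these genes in the results was not tested. The 2 libraries of siRAD21 OHT cells at 48 h differed by close to sampling noise (0.979 chi-square per gene, against 1.044 to 4.239 for the other replicate pairs). Allowing for the removal of duplicate reads, the value was 1.03, against 1.106 to 4.52 for the other pairs. That is 2.3 SEs above the value of 1 for sampling noise. The 2 libraries were still counted as 1 sample in the means. The limma fit held them as 2, so that its SEs and p-values for comparisons with siRAD21 OHT cells at 48 h are too small if they are 1 sample, and values with the pair averaged into 1 are given beside them.

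The start of each gene was examined first, since a promoter sequence was at hand for 68 of the 77 MRPs. A set of short motifs were searched on both strands in the window from 250 bases before to 50 bases after the start. The E-box CACGTG, the textbook binding sequence of Myc with its partner Max, stood in 9 of 84 MRP promoters (10.7%), against 7.3% of all 35116 promoters and 9.1% of those of genes tested for expression. CCGGAAG, the core of sites for ETS factors, stood in 38.1% of MRP promoters, in 15.9% of those of genes tested and in 10.3% of all. GCGCANGCG, the core of the NRF1 site, stood in 17.9%, 12.1% and 7.5%. The YY1 motif AAGATGGCG was found in 13 MRP promoters (15.5%) against 1.7% of all and 3.3% of those of genes tested. A match is only a run of letters, and in 9 of the 14 windows around a YY1 motif the ATG within it is the annotated start codon, so this motif overlaps the coding sequence there.

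The 250 bases before the start are shown for the 3 small subunit genes with the highest OHT response of siCtrl cells at 48 h and for 2 with one of the lowest, so that the extremes of that response can be read side by side. Sequences are RefSeq's, 5′ to 3′ on the gene's strand, with GRCh37 coordinates, and capitals mark an ETS core on either strand.
MRPS25 (chr3:15106823-15107072, minus strand): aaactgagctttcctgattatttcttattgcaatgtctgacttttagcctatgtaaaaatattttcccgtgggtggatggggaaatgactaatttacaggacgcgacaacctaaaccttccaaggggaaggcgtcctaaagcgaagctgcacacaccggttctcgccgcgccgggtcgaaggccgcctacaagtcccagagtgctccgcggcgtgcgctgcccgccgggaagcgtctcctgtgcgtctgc
MRPS17 (chr7:56019320-56019569, plus strand): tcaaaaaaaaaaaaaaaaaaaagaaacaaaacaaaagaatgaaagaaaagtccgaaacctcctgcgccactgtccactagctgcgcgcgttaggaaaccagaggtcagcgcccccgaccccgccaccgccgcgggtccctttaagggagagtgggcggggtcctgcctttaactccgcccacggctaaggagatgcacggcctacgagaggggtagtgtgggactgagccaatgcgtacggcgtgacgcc
MRPS26 (chr20:3026448-3026697, plus strand): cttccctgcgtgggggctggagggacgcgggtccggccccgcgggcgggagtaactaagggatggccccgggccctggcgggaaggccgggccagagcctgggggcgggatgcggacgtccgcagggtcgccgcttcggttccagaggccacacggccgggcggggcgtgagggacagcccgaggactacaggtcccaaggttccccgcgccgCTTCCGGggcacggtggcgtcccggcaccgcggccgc
MRPS16 (chr10:75012403-75012652, minus strand): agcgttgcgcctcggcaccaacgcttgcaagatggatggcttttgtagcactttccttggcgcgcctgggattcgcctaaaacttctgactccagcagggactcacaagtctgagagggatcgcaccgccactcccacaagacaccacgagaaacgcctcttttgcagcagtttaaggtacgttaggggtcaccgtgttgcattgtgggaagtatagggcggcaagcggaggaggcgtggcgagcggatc
MRPS14 (chr1:174992562-174992811, minus strand): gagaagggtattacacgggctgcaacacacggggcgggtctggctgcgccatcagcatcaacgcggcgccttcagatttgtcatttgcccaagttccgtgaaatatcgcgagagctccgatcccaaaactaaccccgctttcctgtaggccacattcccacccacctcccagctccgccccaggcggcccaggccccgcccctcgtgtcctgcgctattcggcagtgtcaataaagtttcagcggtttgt
Within the printed bases only MRPS26 held one of the searched motifs. MRPS16 held an ETS core as well, in the 50 bases after its start that are not printed, and none of the 5 genes held an E-box.

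E-boxes of MRP promoters are shown for genes that come back below, with the motif in capitals. MRPS2 was called higher with OHT at 48 h in both siRNA conditions, MRPS18C in siRAD21 cells, MRPL22 had one of the lowest OHT values, and MRPL14 was among the highest in level.
MRPS2 (chr9:138391743-138391772, plus strand): cgacggccaggtCACGTGactggggagcga
MRPS18C (chr4:84377020-84377049, plus strand): aatcataagcctCACGTGacctgccgcgta
MRPL22 (chr5:154320445-154320474, plus strand): ttttcggaagccCACGTGctttcggccttt
MRPL14 (chr6:44093960-44093989, minus strand): caggtgtacacaCACGTGtgagtgtactag
Counted from the start of that promoter sequence's transcript, the first base of the E-box lay at -56 in MRPS2 and at -179 in MRPS18C. It lay at -176 in MRPL22 and at 28 in MRPL14. For MRPS18C and MRPL14 the start used lies inside the span annotated for the gene, downstream of its 5′ end. Among the MRPs with a promoter sequence, the median log2 fold change of siCtrl cells with OHT at 48 h was 0.23 for the 9 with an E-box and 0.29 for the 58 without one that were tested. In siRAD21 cells the same medians were 0.50 and 0.46. For the YY1 motif they were 0.34 (13 genes) and 0.28 (54 genes) in siCtrl cells and 0.38 and 0.46 in siRAD21 cells. For the ETS core they were 0.22 (28 genes) and 0.34 (39 genes) in siCtrl cells and 0.41 and 0.50 in siRAD21 cells. For the NRF1 core they were 0.23 (14 genes) and 0.29 (53 genes) in siCtrl cells and 0.47 and 0.46 in siRAD21 cells. The ranges with and without each of these motifs overlapped.

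The YY1 motif is shown for 3 genes at whose start it spans the initiating ATG and that are discussed for their subunit, for MRPL38, whose level was the lowest of those tested, and for MRPL32, in which it lies on the other strand away from the start codon.
MRPS18A (chr6:43655501-43655529, minus strand): taggtttttgAAGATGGCGgccctcaagg
MRPS18B (chr6:30585630-30585658, plus strand): ggcgtacgtcAAGATGGCGgcgtctgtat
MRPS30 (chr5:44809052-44809080, plus strand): atcgcgggcaAAGATGGCGgcggccaggt
MRPL38 (chr17:73900941-73900969, minus strand): ggccggagggAAGATGGCGgcgccctggt
MRPL32 (chr7:42971742-42971770, plus strand): acccgcgctcCGCCATCTTtacccgaaga

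Nearly all MRPs were well expressed. Of the 77, 76 had a mean of at least 1 eRPKM and were tested. MRPL53, for which 99.4% of the exon bases are shared with other annotated genes, was listed at 0 in every library. Across the 76, the median of the mean levels was 37.2 eRPKM, against 12.9 for all 14993 genes tested, and 71 lay between 10 and 100 eRPKM. The median exon length was 1470 bases against 3319 for all genes tested, and a gene had 8 to 2499 reads in a library with a median of 652.

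MRPL51, a mitochondria-specific protein of the large subunit, had the highest mean level at 106 eRPKM. It was followed by MRPS34 (89.4), a mitochondria-specific small subunit protein, and by MRPL14 (80.1), a large subunit protein on the face that meets the small subunit. At the lower end stood MRPL22 (8.26), whose homologs line the exit tunnel, MRPS24 (2.80) and MRPL38 (2.34). MRPS24 shares 23.2% of its exon bases with a read-through transcript and MRPL38 45.1% with 2 other annotated genes, so reads of these genes may have been split or left out. The highest library was 2-fold or more above the lowest for 19 of the 76 genes and less than 1.5-fold above it for 17, with MRPL30 the steadiest at 1.24-fold.

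**Figure D1:**
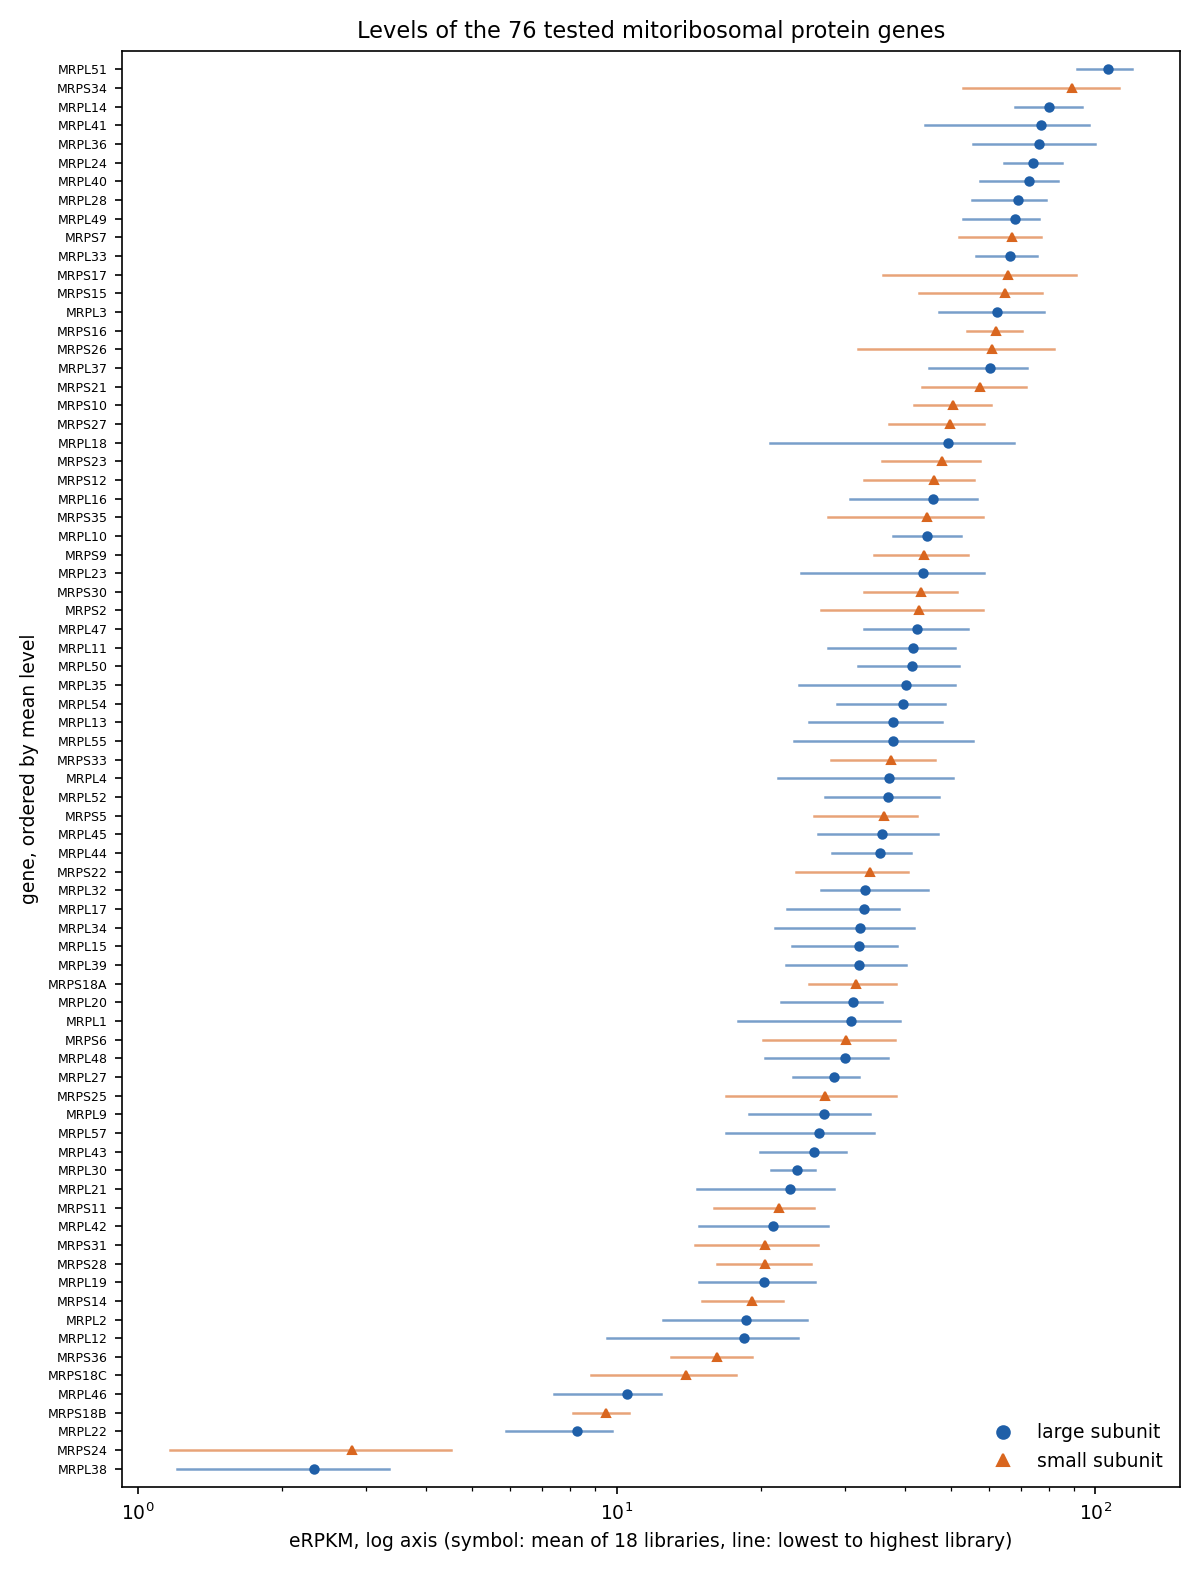
Mean level of each of the 76 tested MRP genes over the 18 libraries (symbols) with the lowest and the highest library (lines), in eRPKM on a log axis, for the large (circles) and small subunit (triangles). Most genes lie between 10 and 100 eRPKM, MRPL51 is highest at 106 and MRPL38 lowest at 2.34, and genes of both subunits are found along the whole order.

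The large and small subunit genes were expressed at like levels. The median of the mean levels was 36.9 eRPKM for the 47 tested large subunit genes and 42.9 for the 29 small subunit genes. In each of the 18 libraries the small subunit median was the higher, but the mean of log2 values was lower for the small subunit in 17 of 18 libraries, so the order depends on the summary used. The small minus large difference of mean log2 values ran from -0.13 to 0.03.

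The library medians over all 76 genes moved with both treatments. At 48 h they were 30.6, 33.8 and 32.5 eRPKM in the siCtrl libraries and 40.0, 41.7 and 41.1 in the siCtrl OHT libraries. With siRAD21 they were 25.9 and 27.4 without OHT and 38.5 and 38.9 with it. At 48 h the 4 groups did not overlap, the siRAD21 libraries being lowest and the siCtrl OHT libraries highest. At 24 h the medians were 39.2 and 35.0 in siCtrl, 42.6 and 45.2 in siCtrl OHT, 33.9 and 33.3 in siRAD21 and 40.9 and 44.2 in siRAD21 OHT cells. The order of the groups was the same there, but the siCtrl OHT and siRAD21 OHT libraries overlapped and the 2 siCtrl libraries were further apart than those of siRAD21 cells. The median over all genes tested stayed between 11.9 and 13.4 eRPKM in every library. Since eRPKM is a share of each library and the samples are bulk RNA, fewer cells expressing a gene and less of its RNA per cell cannot be told apart.

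**Figure D2:**
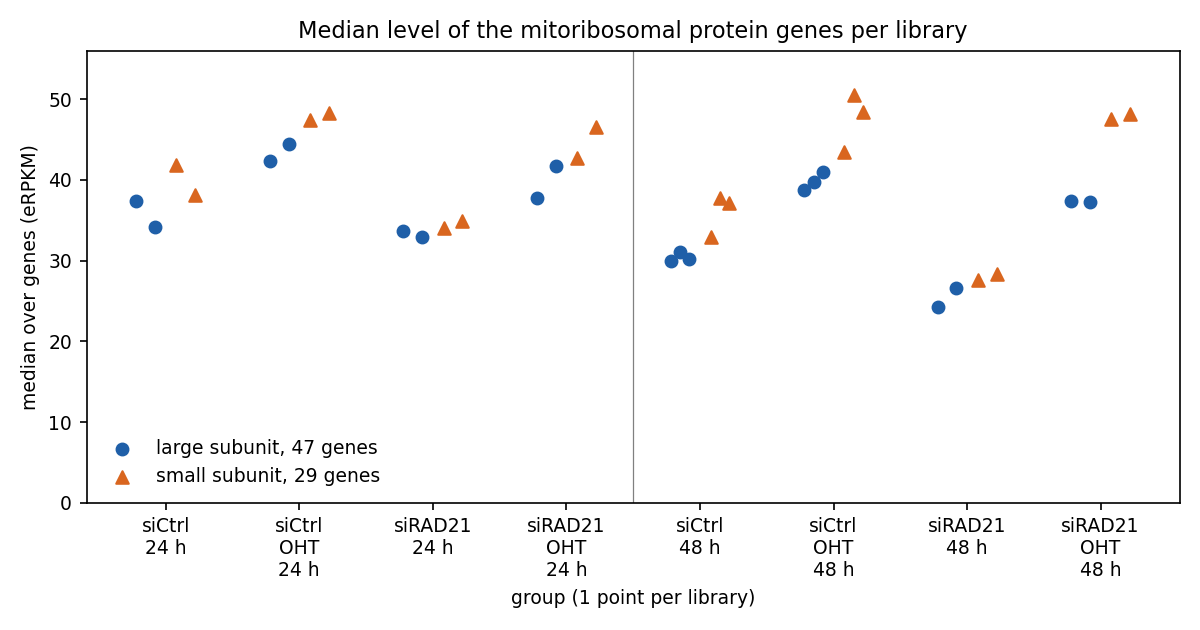
Median eRPKM over the 47 large (circles) and 29 small subunit genes (triangles) in each library, by group, 24 h on the left and 48 h on the right. At 48 h the medians of both subunits are higher with OHT and lowest in siRAD21 cells without OHT.

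With MycER activation in siCtrl cells 8 of 76 MRP mRNAs rose past the fold threshold at 48 h and 0 did at 24 h, while the values of most genes lay above 0 at both times. At 24 h the median log2 fold change of the 76 genes was 0.14, against -0.01 for all genes tested, and 74 of 76 were above 0. With limma and Benjamini-Hochberg adjustment over all genes, a gene was called when the adjusted p was below 0.05 and the log2 fold change past 0.5. By this rule no MRP was called higher at 24 h, against 3.68% of all genes, and none lower, against 5.1%. At an unadjusted p below 0.05 there were 32 MRPs, all higher, and voom on reads recovered from the table called 0 as well. By the adjusted p alone 26 of 76 were higher, against 12.5% of all genes. The median at 24 h was 0.23 without the first siCtrl library and 0.07, with 14 genes below 0, without the second.

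At 48 h the median was 0.29 against -0.01 for all genes, 75 of 76 MRPs were above 0, and 8 of 76 were called higher, beside 7.78% of all genes. None was called lower, beside 10.1% of all genes, and in none of the 4 OHT comparisons did limma give an MRP an unadjusted p below 0.05 in the lower direction or voom a lower call. Without the fold threshold 60 of 76 MRPs passed, all higher, beside 26.1% of all genes. Leaving out the first siCtrl OHT library gave 13 calls. Thus the number past the fold threshold was near the background, whereas small changes in 1 direction were spread over most of the family. Other genes in the middle range of length and level of the MRPs (1022 to 2256 bases, 27.0 to 49.8 eRPKM) had a median of 0.11 at 48 h, with 66 of 629 called higher and 9 lower. The part of length and level in the result was not tested.

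The 8 genes that rose in siCtrl cells at 48 h were MRPS25, MRPS17, MRPL2, MRPS26, MRPL4, MRPL34, MRPS2 and MRPS12. MRPS25 (chr3:15051118-15106846), a mitochondria-specific small subunit protein, was at 18.8, 19.2 and 19.6 eRPKM in the siCtrl libraries and at 34.3, 33.5 and 34.0 with OHT. Every OHT library was thus above every siCtrl library, and the log2 fold change was 0.81 (SE 0.035, adjusted p = 7.50e-10). MRPS17 (chr7:56019570-56024193), whose bacterial homolog binds the ribosomal RNA early in assembly, was at 52.1, 56.5 and 53.2 eRPKM without and 82.9, 88.2 and 91.2 with OHT. The groups did not overlap, with a log2 fold change of 0.69 (SE 0.057, adjusted p = 2.75e-07). Of the exon bases annotated for MRPS25 45.9% are shared with other genes, and for MRPS17 25%.

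MRPL2 and MRPL4 led the large subunit. MRPL2 (chr6:43021767-43027176), the homolog of a protein close to the peptidyl transferase centre, went from 12.8, 15.1 and 14.9 eRPKM to 21.2, 25 and 23.6, a log2 fold change of 0.69 (SE 0.080, adjusted p = 6.46e-06). MRPL4 (chr19:10362577-10370731), whose homologs reach into the exit tunnel, went from 26.9, 28.0 and 27.9 to 41.8, 44.8 and 43.0 eRPKM, a log2 fold change of 0.64 (SE 0.054, adjusted p = 3.63e-07). Neither gene had overlapping groups. MRPL34, which has a bacterial homolog, showed more spread, at 21.4, 22.5 and 29.9 eRPKM without and 34.6, 39.7 and 38.0 with OHT (0.61, SE 0.111).

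Among the other small subunit genes, MRPS26, a mitochondria-specific protein without pseudogenes or shared exon bases, went from 44, 48.8 and 51.1 to 72.2, 76.5 and 76.7 eRPKM (log2 fold change 0.64, SE 0.066). MRPS2, the homolog of bacterial protein S2, went from 37.5, 38.0 and 40.9 to 55.7, 58.2 and 56.4 eRPKM (0.55, SE 0.051). The call of MRPS2 was lost in 1 alternative, at 0.43. Here and below, alternatives that lost a call are counted at the fold threshold of 0.5, without those that changed this threshold. MRPS12, part of the decoding centre, went from 32.9, 39 and 38.8 to 50.2, 54.9 and 53.7 eRPKM (0.52, SE 0.077). MRPS12 was past the fold threshold by little and fell below it in 3 alternatives, with 0.40 as the lowest value.

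The smallest responses included MRPS36, MRPS16, MRPS14, MRPL24 and MRPL33. MRPS36, which is now assigned to the alpha-ketoglutarate dehydrogenase complex, was at 16.4, 17.4 and 16.6 eRPKM without and 16.3, 15.1 and 17.7 with OHT at 48 h, and these values overlapped (log2 fold change -0.04, SE 0.091). It was the only tested MRP below 0 in this comparison. MRPS16, a conserved small subunit protein, was at 60.0, 64.3 and 60.0 eRPKM without and at 59.0, 65 and 64.8 with OHT (0.03, SE 0.048). For MRPS14, MRPL24 and MRPL33, which all have bacterial homologs, the log2 fold changes were 0.07, 0.08 and 0.08. MRPL51, the highest expressed member, gave 0.10 (SE 0.061).

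**Figure D3:**
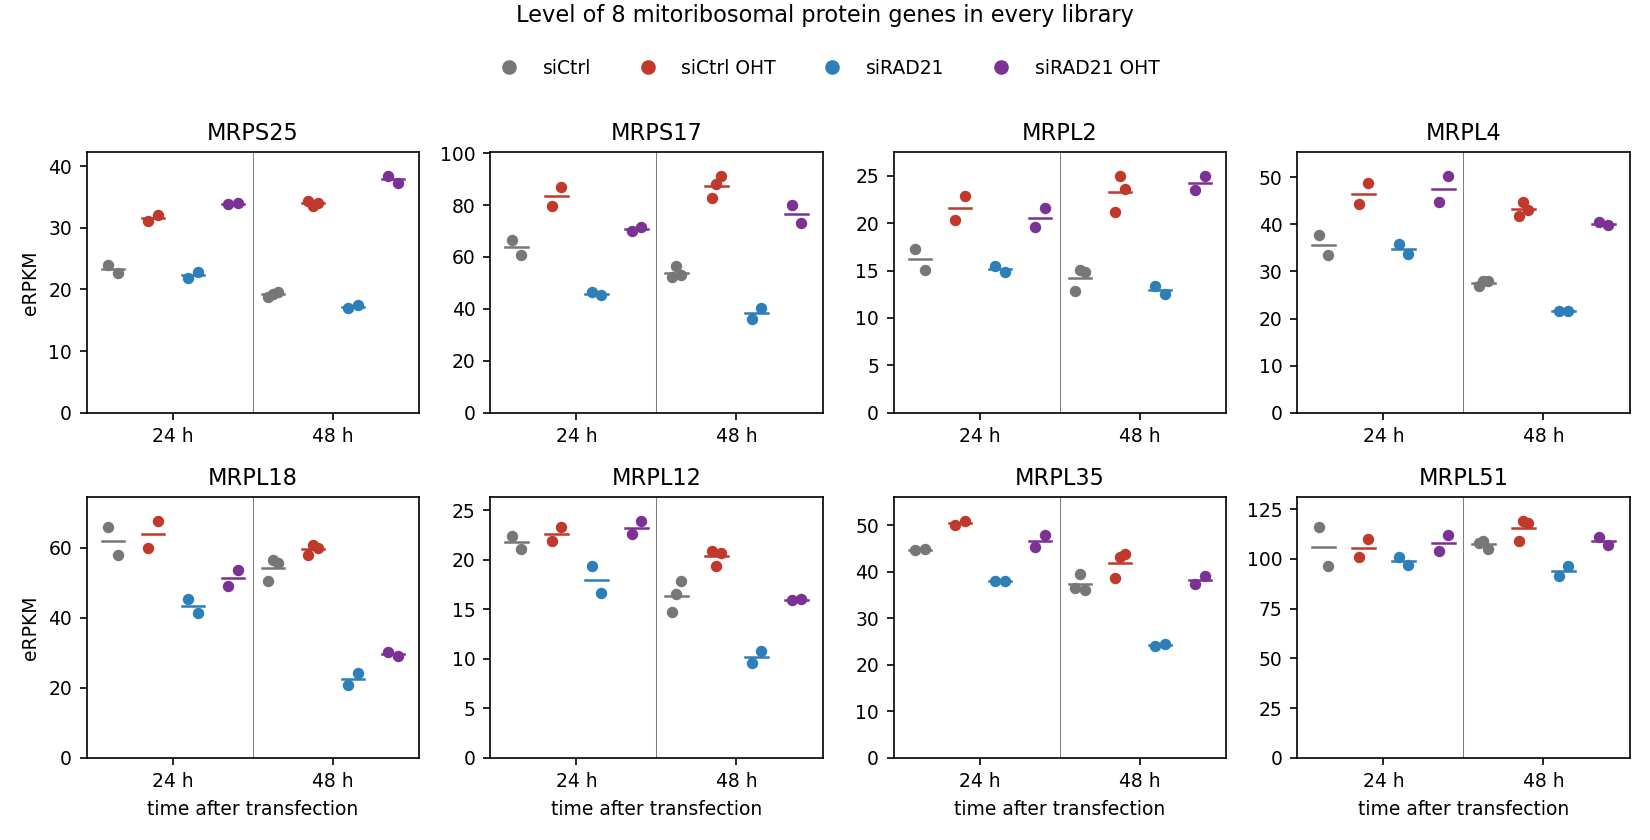
eRPKM in every library (points) and group means (short lines) of MRPS25, MRPS17, MRPL2, MRPL4, MRPL18, MRPL12, MRPL35 and MRPL51, with 24 h to the left and 48 h to the right in each panel. MRPS25 reaches 34.3 eRPKM in siCtrl OHT and 38.4 in siRAD21 OHT cells from below 20 at 48 h, MRPL18 falls to 20.9 in siRAD21 cells and MRPL51 changes little.

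In siRAD21 cells the fold changes with OHT were larger. At 24 h the median was 0.27, all 76 genes were above 0, and 4 were called higher beside 4.29% of all genes. These were MRPS17 (0.62), MRPS25 (0.59), MRPS6 (0.56) and MRPS26 (0.51), all of the small subunit, of which MRPS6 was named after its values were seen and MRPS26 fell below the fold threshold in 3 alternatives, down to 0.43. None was called lower, beside 7.62% of all genes. At any fold, 50 of 76 passed the adjusted p as higher, beside 16.9% of all genes. Without the first siRAD21 OHT library 10 were called.

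At 48 h 33 of 76 MRPs were called higher in siRAD21 cells, beside 12.4% of all genes, and none lower, beside 16.2%. Past the adjusted p, with no fold threshold, 70 of 76 were higher, beside 30.5% of all genes, and 66 were with the pair of siRAD21 OHT libraries averaged. The median log2 fold change was 0.46 and the quartiles 0.33 and 0.58, against a median of -0.02 for all genes tested and of 0.20 for the other genes in the middle range of length and level, of which 132 of 629 were called higher. The count was 17 of 76 under quantile normalization and 33 when the 2 libraries of siRAD21 OHT cells were averaged into 1. Under quantile normalization the median was 0.34, and the share of all genes called in that setting is not given here.

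MRPS25 again had the highest value. It was at 16.9 and 17.5 eRPKM in siRAD21 cells and at 38.4 and 37.3 with OHT, a log2 fold change of 1.12 (SE 0.042, adjusted p = 2.56e-10, and SE 0.054, adjusted p = 2.21e-08 with the pair averaged). MRPS17 went from 36 and 40.5 to 79.9 and 72.9 eRPKM (0.99, SE 0.070), and MRPS26 from 31.9 and 34.0 to 63.3 and 63.1 (0.93, SE 0.081). No OHT library of these 3 genes overlapped with its controls.

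In the large subunit MRPL2 went from 13.4 and 12.5 to 23.5 and 25 eRPKM (0.88, SE 0.097) and MRPL4 from 21.7 and 21.7 to 40.5 and 39.8 (0.87, SE 0.067). MRPL1, a protein of the mobile stalk beside the exit site for tRNA, followed with 17.9 and 19.8 eRPKM without and 34.9 and 30.2 with OHT (0.77, SE 0.077). MRPS2 (0.80) and MRPS35 (0.74), a mitochondria-specific small subunit protein, completed the 8 highest. The proteins of the stalk that recruits translation factors were among the genes called as well, MRPL12 with 0.62 and MRPL11 with 0.56, while MRPL10 had 0.32. The call of MRPL11 was lost in 1 alternative, at 0.41. MRPL3, near the peptidyl transferase centre, stood just under the fold threshold at 0.49.

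The lowest OHT values in siRAD21 cells at 48 h among well-expressed members were those of MRPL22 (-0.01, SE 0.092), MRPL43 (0.13), MRPS14 (0.14), MRPL24 (0.17) and MRPL30 (0.17). MRPL22 was at 6.21 and 6.67 eRPKM without and 6.92 and 5.87 with OHT, and these values overlapped. For MRPL24 the adjusted p in limma was 0.0401, and 0.115 with the pair averaged, and for MRPL30 it was 0.00398 and 0.0229.

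Across the 76 genes the OHT fold changes in siCtrl and siRAD21 cells, which share no library, had Pearson's r = 0.75 and Spearman's rho = 0.69 at 48 h. Over all 14993 genes the same values were 0.74 and 0.76, and genes are not independent replicates. The value was larger in siRAD21 cells for 70 of 76 MRPs at 24 h and at 48 h. It was larger for 51.3% and 52.7% of all genes. For the other genes in the middle range of length and level the shares were 76.5% and 74.7%. At 48 h they were 97.4% for cytosolic ribosomal proteins and 97.3% for complex I subunits. The difference of the OHT values between siRAD21 and siCtrl cells, the siRNA by OHT interaction, was tested in the same limma fit. At 24 h no MRP was called higher in it, and 0.0% of all genes were. At an unadjusted p below 0.05 there were 5 MRPs, all higher, and voom called none.

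At 48 h the median of the interaction was 0.17 against 0.02 for all genes, and no MRP was called higher, beside 3.33% of all genes. The median was 0.11 for the other genes in the middle range of length and level and 0.22 for complex I subunits. At an unadjusted p below 0.05 there were 29, all higher, and voom called 0. On the adjusted p alone 13 of 76 passed, all higher, beside 10.0% of all genes, and 4 did with the pair of siRAD21 OHT libraries averaged. The highest was MRPL35, at 0.48 (SE 0.075, adjusted p = 0.000775), and MRPS25 was at 0.31 (SE 0.055, adjusted p = 0.00177). With the pair averaged the adjusted p of MRPL35 was 0.0048 and that of MRPS25 was 0.0102 in limma. MRPL35 had a log2 fold change with OHT of 0.16 in siCtrl and of 0.65 in siRAD21 cells.

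**Figure D4:**
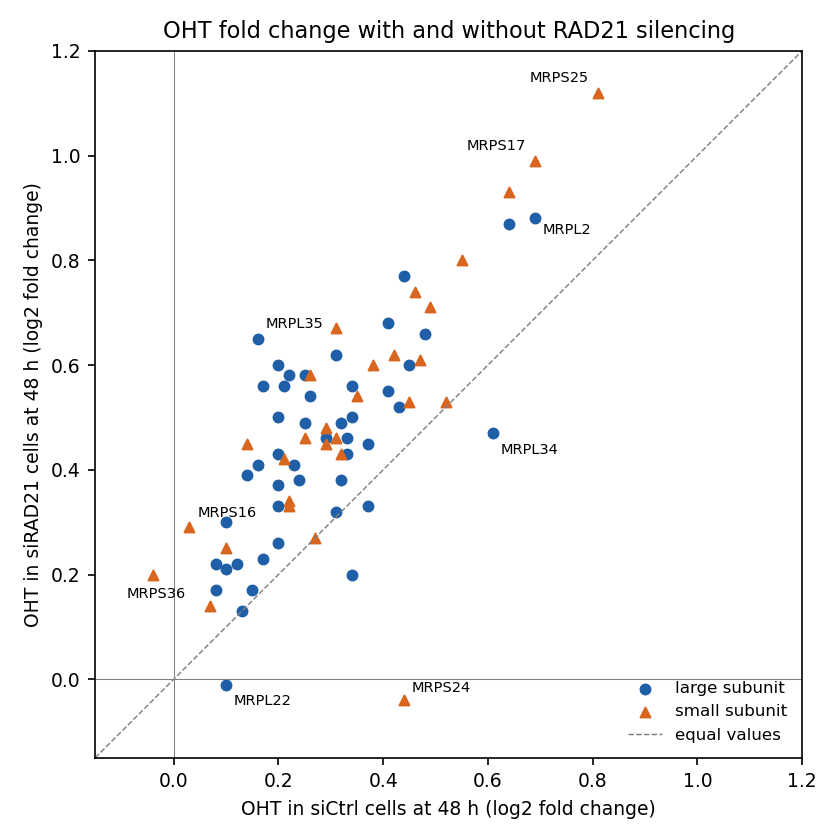
Log2 fold change with OHT at 48 h of each of the 76 genes in siCtrl (x axis) and siRAD21 cells (y axis), with the line of equal values. Of the 76 genes 70 lie above the line, MRPS25 is highest on both axes, and MRPS24 lies furthest below the line.

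With RAD21 silencing without OHT 1 MRP mRNA fell past the fold threshold at 24 h and 9 did at 48 h, and the values of most others lay below 0. At 24 h the median log2 fold change was -0.15 against 0.00 for all genes, 74 of 76 were below 0, and 1 gene, MRPL18, was called lower, beside 2.6% of all genes. None was called higher, beside 5.83%, and without the fold threshold 20 of 76 were lower, beside 11.8% of all genes. The median was -0.08, with 16 genes above 0, without the first siCtrl library and -0.23 without the second, and 3 genes were called lower without the second. The call of MRPL18 was lost without the first siCtrl or the second siRAD21 library.

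At 48 h the median was -0.28 against -0.01 for all genes, 73 of 76 were below 0, and 9 of 76 were called lower, beside 11.2% of all genes. None was called higher, beside 12.6%, and at neither time was there an MRP with an unadjusted p below 0.05 in that direction in limma or a higher call by voom. Without the fold threshold 55 of 76 were lower, beside 30.5% of all genes. The other genes in the middle range of length and level had a median of -0.17, with 92 of 629 called lower and 14 higher. As with OHT in siCtrl cells at 48 h, the count past the fold threshold was near the background and many small shifts lay in 1 direction. Without the first siRAD21 library 5 genes were called, and 15 without the second or without the first siCtrl library. Quantile normalization gave 5 calls and a median of -0.20, and the share of all genes called in that setting is not given here.

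MRPL18 (chr6:160210844-160219468), a protein of the central protuberance of the large subunit, fell most. It was at 50.6, 56.4 and 55.7 eRPKM in siCtrl and at 20.9 and 24.3 in siRAD21 cells at 48 h, a log2 fold change of -1.25 (SE 0.078, adjusted p = 1.30e-08). At 24 h it was at 66.0 and 57.9 eRPKM in siCtrl and at 45.3 and 41.5 in siRAD21 cells (-0.51, SE 0.086). The groups did not overlap at either time. None of its exon bases is shared with another gene and no pseudogene is annotated for it.

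The other genes that fell at 48 h did so by smaller amounts. MRPL12 (chr17:79670397-79674547), which forms the stalk, went from 14.7, 16.5 and 17.9 to 9.57 and 10.8 eRPKM (-0.66, SE 0.082), although 69.5% of its exon bases are shared with another annotated gene. MRPL35, a large subunit protein with a bacterial homolog, went from 36.5, 39.5 and 36.1 to 24.1 and 24.5 eRPKM (-0.61, SE 0.053). MRPS34 went from 76.7, 86.3 and 82.4 to 52.9 and 55.7 eRPKM (-0.59, SE 0.065), and lost its call in 1 alternative, at -0.45. In none of these did the groups overlap.

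MRPL41, a mitochondria-specific protein, had -0.56 and MRPS26 -0.53, and MRPL13, MRPL11 and MRPL23 each had -0.51, of which MRPL23 was named after its values were seen. The calls of MRPL41, MRPS26, MRPL13 and MRPL11 were each lost in 3 alternatives, where their values lay between -0.49 and -0.42, among them quantile normalization and leaving out the first siRAD21 library. The values highest on the scale were those of MRPL32 (0.11), a zinc-binding protein that is cut by a mitochondrial protease before assembly, and MRPL34 (0.08), MRPL10 (0.01), MRPS10 (-0.01), MRPS21 (-0.04), MRPL45 (-0.05), MRPL30 (-0.06) and MRPL44 (-0.07). None of these 8 passed the test. MRPL32 was at 26.7, 29.5 and 27.9 eRPKM in siCtrl and at 30.2 and 30.3 in siRAD21 cells.

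**Figure D5:**
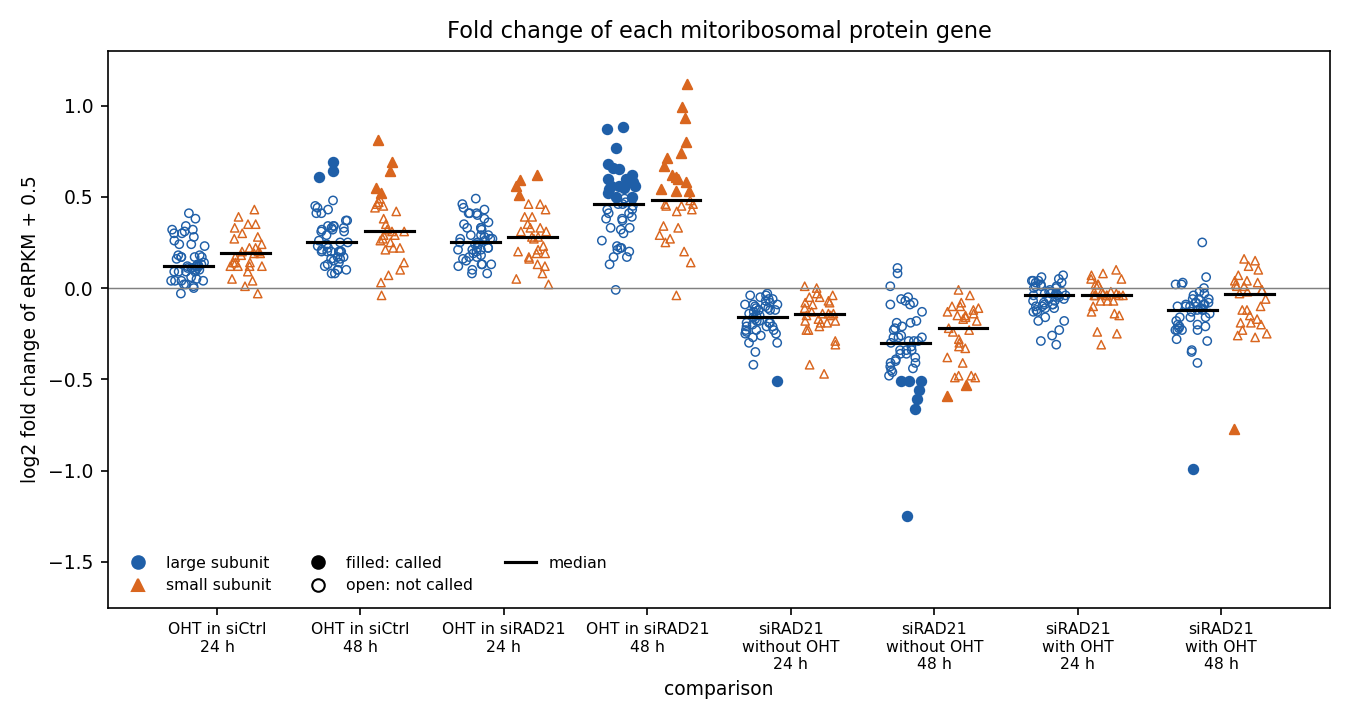
Log2 fold change of each tested MRP gene in the 4 comparisons of OHT and the 4 of siRAD21, with the large subunit as circles and the small subunit as triangles. Filled symbols passed an adjusted p of 0.05 and a log2 fold change of 0.5, and bars are medians. OHT values lie mostly above 0 and siRAD21 values without OHT mostly below 0, with MRPL18 lowest at -1.25.

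With OHT present in both arms, RAD21 silencing left a smaller shift. At 24 h the median was -0.04, no MRP was called lower beside 2.73% of all genes, and none higher beside 3.74%. At an unadjusted p below 0.05 there were 7 lower and 1 higher, voom called 0, and by the adjusted p alone 5 were lower, beside 9.44% of all genes. At 48 h the median was -0.11, 2 of 76 were called lower beside 7.74% of all genes, and none higher beside 8.47%, although limma gave 3 an unadjusted p below 0.05 in that direction and voom called 0. At any fold, 23 passed the adjusted p as lower, beside 22.8% of all genes, and 3 as higher, beside 22.4%. These 3 were MRPL32 (0.25), MRPS25 (0.16) and MRPS16 (0.15). With the pair averaged 11 passed as lower and 2 as higher, and MRPS16 did not pass.

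Those 2 genes were MRPL18 and MRPS24. MRPL18 was at 57.8, 60.9 and 60.0 eRPKM in siCtrl OHT and at 30.3 and 29.1 in siRAD21 OHT cells (-0.99, SE 0.078, adjusted p = 2.32e-07, or 1.14e-05 with the pair averaged). MRPS24 was at 3.51, 2.38 and 3.35 eRPKM and at 2.08 and 1.17 (-0.77, SE 0.204, adjusted p = 0.00681, or 0.0188 with the pair averaged), and it was not called without the second siRAD21 OHT library. The OHT response of MRPL18 itself was 0.14 in siCtrl and 0.39 in siRAD21 cells at 48 h.

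Set directly beside siCtrl cells without OHT, the siRAD21 OHT cells at 48 h had log2 values higher by a median of 0.15, with 63 of 76 genes above 0 and 13 below. MRPL18 was lowest with -0.86 and MRPS25 highest with 0.96. At 24 h the median was 0.10, with 64 above 0 and 12 below. This difference is the sum of the siRAD21 and OHT values given above, which share the siRAD21 libraries, and it was not tested.

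Levels also differed between the times in siCtrl cells without OHT. The median log2 fold change from 24 to 48 h was -0.17 against -0.04 for all genes, with 62 of 76 below 0. The other genes in the middle range of length and level had a median of -0.12, with 454 of 629 below 0. By the adjusted p alone 257 of those 629 were lower. Whether differences other than time between the 24 and 48 h libraries had a part was not tested. MRPS24 was called lower (-0.62), beside 6.91% of all genes, and by the adjusted p alone 36 of the 76 MRPs were lower, beside 27.2% of all genes. The call of MRPS24 was lost without the first siCtrl library of either time. The OHT fold change in siCtrl cells was larger at 48 than at 24 h by a median of 0.14. No MRP was called higher in this difference, beside 0.714% of all genes, although 17 had an unadjusted p below 0.05, all higher, and voom called 0. By the adjusted p alone 1 passed, MRPS25 (0.37, SE 0.055, adjusted p = 0.00235), beside 2.21% of all genes.

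The medians of both subunits lay on the same side of 0 in the comparisons of OHT and of siRAD21. With OHT at 48 h in siCtrl cells the median was 0.25 for the large and 0.31 for the small subunit, with 3 of 47 and 5 of 29 genes called higher, beside 7.78% of all genes. In siRAD21 cells the medians were 0.46 and 0.48, with 19 of 47 and 14 of 29 called, beside 12.4% of all genes. For siRAD21 without OHT at 48 h they were -0.30 and -0.22, with 7 of 47 and 2 of 29 called lower, beside 11.2% of all genes. The large minus small difference of medians was thus between -0.02 and -0.08 in these 3 comparisons, and for siRAD21 with OHT at 48 h it was -0.09. For OHT in siRAD21 cells at 48 h it ranged from -0.07 to -0.02 with each library left out in turn. Within libraries, the small minus large difference of mean log2 levels at 48 h was -0.13, -0.12 and -0.11 in siCtrl and -0.05, -0.07 and -0.04 in siCtrl OHT cells. It was -0.07 and -0.04 in siRAD21 and 0.03 and -0.00 in siRAD21 OHT cells. The values at 24 h were -0.12 and -0.11 in siCtrl, -0.06 and -0.08 in siCtrl OHT, -0.10 and -0.09 in siRAD21 and -0.05 and -0.07 in siRAD21 OHT cells. Within each siRNA condition the small subunit was thus higher relative to the large one in every OHT library than in its controls at both times. Without OHT it was also higher in every siRAD21 library than in the siCtrl libraries of the same time. At 48 h the siRAD21 libraries without OHT (-0.07 and -0.04) overlapped with those of siCtrl OHT cells. In siRAD21 cells at 24 h all 4 genes called with OHT belonged to the small subunit. No test was made of the difference, since the genes of a subunit are not replicates of a condition.

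Some symbols do not give the place of the protein in the ribosome. MRPS30 and MRPS18A are found in the large subunit of the mammalian mitoribosome and MRPS36 is not a ribosomal protein in mammals. MRPS30 rose in siRAD21 cells with OHT at 48 h (0.53, SE 0.055), a call lost in 2 alternatives with 0.36 as the lowest value. It had 0.45 in siCtrl cells, and MRPS18A had 0.27 in both siRNA conditions. With these genes moved, the medians for OHT at 48 h were 0.25 and 0.32 in siCtrl and 0.46 and 0.51 in siRAD21 cells, and for siRAD21 without OHT they were -0.29 and -0.23.

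MRPS18A, MRPS18B and MRPS18C are paralogs related to bacterial protein S18. MRPS18A was at a mean of 31.6 eRPKM, MRPS18C at 14.0 and MRPS18B at 9.53. The level of MRPS18B rests on a length of 10738 bases behind the deposited values, whereas 1757 exon bases are annotated for it, and its 896 to 1261 reads per library were more than the 562 to 933 of MRPS18A and the 108 to 208 of MRPS18C. The order of the 3 levels therefore depends on the length used. MRPS18C was at 8.83 and 10.4 eRPKM in siRAD21 cells at 48 h and at 14.4 and 16.8 with OHT, with a log2 fold change of 0.67 (SE 0.116), and the values of MRPS18B and MRPS18A were 0.34 and 0.27. Of the exon bases 40.2% are shared with another gene for MRPS18C and 50.9% for MRPS18A, and 3 and 1 pseudogenes are annotated for them. The paralogs were not compared with each other by a test.

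The 3 members that lie on chromosome 8, MRPL13, MRPL15 and MRPS28, had log2 fold changes with OHT at 48 h of 0.26, 0.33 and 0.29 in siCtrl and of 0.54, 0.43 and 0.45 in siRAD21 cells. MRPL13 alone of the 3 was called in the latter, and it lost the call in 2 alternatives, with 0.41 as the lowest value.

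Other parts of mitochondrial gene expression were read from lists of their genes. Of 7 tested genes listed as mitoribosomal proteins without an MRP symbol, 0 were called with OHT in siCtrl cells at 48 h by limma. In siRAD21 cells 3 were called higher. Among all genes 7.78% and 12.4% were called higher in these 2 comparisons. PTCD3 and ICT1 had 0.48 and 0.45 in siCtrl cells, and CHCHD1 and OXA1L 0.10 and 0.11. OXA1L is counted in this list although it is a membrane insertase that binds the ribosome and not a ribosomal protein. With siRAD21 at 48 h 2 of these 7 were called lower, beside 11.2% of all genes. They were GADD45GIP1 (-0.79) and AURKAIP1 (-0.52), both named after their values were seen.

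Of 22 tested genes of mitoribosome assembly and rRNA modification, 5 were called higher with OHT in siCtrl cells at 48 h and 7 in siRAD21 cells. The shares of all genes were 7.78% and 12.4%, and the medians of the list were 0.33 and 0.38. The helicase gene DDX28 had 0.91 and the rRNA methyltransferase gene RNMTL1 0.84 in siCtrl cells, whereas NGRN and YBEY had 0.05 and -0.14. Without OHT 0 of the 22 were called at 48 h of siRAD21, beside 11.2% of all genes lower and 12.6% higher, and the median was -0.07. Of 13 mitochondrial translation factors 3 were called higher with OHT at 48 h in siCtrl and 5 in siRAD21 cells, beside 7.78% and 12.4% of all genes. MTFMT, which formylates the initiator tRNA, had 0.67 and the initiation factor MTIF2 0.64, while MTRF1 and MTIF3 had -0.11 and -0.24.

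Of 17 mitochondrial tRNA synthetases 2 were called higher with OHT in siCtrl cells at 48 h, MARS2 (1.04) and YARS2 (0.58). In siRAD21 cells 4 were called higher, and the shares of all genes were 7.78% and 12.4%. HARS2 had -0.11. Of 9 genes of mitochondrial transcription and DNA maintenance 3 were called higher in siCtrl cells and 1 in siRAD21 cells, beside the same shares. The subunit of the mitochondrial DNA polymerase POLG2 had 0.86 and the helicase gene C10orf2 0.65, while MTERF1 and TFAM had 0.23 and 0.22.

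The cytosolic ribosomal proteins and complex I subunits moved less with OHT. Of 76 cytosolic ribosomal proteins 0 were called higher in siCtrl cells at 48 h and 1 in siRAD21 cells, with medians of 0.08 and 0.19. Of 37 complex I subunits 0 and 3 were called, with medians of 0.10 and 0.32. With siRAD21 without OHT at 48 h the medians were -0.12 and -0.24, and 1 gene of each list was called lower, beside 11.2% of all genes. The differences between these lists and the MRPs were not tested.

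The removal of duplicate reads sets a ceiling to counts, which bears on short and highly expressed genes. The MRPs reached at most 1.93 to 64.6% of this ceiling in any library, with a median of 26.8% and the highest in MRPS34. With the removal undone by calculation, 11 of 76 MRPs were called higher with OHT at 48 h in siCtrl cells, beside 8.34% of all genes in that setting, and 38 in siRAD21 cells, beside 13.4%. With siRAD21 without OHT 13 were called lower, beside 12.1%.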

How the data were processed

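Ribosome-depleted total RNA of U2OS-MycER cells was sequenced in 18 libraries. The authors quality-trimmed the reads, aligned them to hg19 (GRCh37) with TopHat2 2.0.8, removed PCR duplicates and counted exonic reads (featureCounts 1.4.5 in the submitters' processing notes). The deposited values are RPKM on exons (eRPKM). Groups and replicate numbers came from the sample labels. The table held no per-sample column that was left unused.

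Genes with a mean of at least 1 eRPKM were kept. On log2(eRPKM + 0.5), which understates fold changes of low genes, limma 3.58.1 in R 4.3.3 was fitted with a mean for each of 8 groups and a variance trend, and p-values were adjusted over all 14993 genes. Whole reads were recovered from the table for 21568 genes (100.0% of their values within 0.01 of a whole number), which gave the depths. Voom was run on them as an alternative chosen after seeing the data. The script was checked on simulated data.

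Same-numbered siCtrl and siCtrl OHT libraries at 48 h deviated together (correlations of 0.5, 0.357 and 0.265), so these numbers pair the samples by the data. Genes were named by rule, namely the 8 highest and 5 lowest log2 fold changes (mean level 5 eRPKM or more) for OHT in either siRNA condition and for siRAD21 without OHT at 48 h, the 3 highest and 3 lowest levels, 13 members of set interest and, of each pathway list, the 2 highest and 2 lowest with OHT in siCtrl cells at 48 h. The members and lists were chosen with earlier results of these data known. A result that the rule covers is not reported here. Promoters were RefSeq sequences of GRCh38.p14 located in GRCh37 by an exact match. Shared exon bases and pseudogenes were read from GENCODE on GRCh37, and whether counting used strand is not given in the sources used here. Alternatives covered scaling, filter, pseudocount, fold threshold, variance model, replicate block and each library left out. Correlations and medians over genes are descriptions.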

Additional observations from a re-analysis of the deposited data

How the results depend on the processing

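None of the 43 named results reversed its direction under any alternative, and the medians given here kept their sign. Single MRPs did change sides of 0 in some alternatives, as when a siCtrl library of 24 h was left out. Without a fold threshold the calls numbered 26 and 60 for OHT in siCtrl cells at 24 and 48 h, 50 and 70 for OHT in siRAD21 cells, 20 and 55 for siRAD21 without OHT, 5 and 26 for siRAD21 with OHT, 13 for the interaction at 48 h, 36 for time and 1 for the OHT difference between times. With a log2 fold change past 1 there were 0 calls for OHT in siCtrl cells at 48 h, for OHT in siRAD21 cells at 24 h, for siRAD21 without OHT at 24 h, for siRAD21 with OHT at 48 h and for time, and 1 each for OHT in siRAD21 cells and siRAD21 without OHT at 48 h. Centring gave 8 calls for OHT in siRAD21 cells at 24 h. Quantile normalization gave 17 for OHT in siRAD21 cells and 5 for siRAD21 without OHT at 48 h, with medians of 0.21 for OHT in siCtrl cells, 0.34 and -0.20, and the cause was not tested. A filter at 5 eRPKM, which removes MRPS24, left 1 call for siRAD21 with OHT at 48 h and 0 for time. Undoing the removal of duplicates, chosen after seeing the data like voom, averaging and crossing below, gave 1, 7, 2 and 1 calls for OHT at 24 h in siCtrl cells, OHT at 24 h in siRAD21 cells, siRAD21 without OHT at 24 h and the interaction at 48 h. With each library left out in turn the calls ranged from 0 to 1 and 7 to 13 for OHT in siCtrl cells at 24 and 48 h, 3 to 10 and 26 to 38 for OHT in siRAD21 cells, 0 to 3 and 5 to 15 for siRAD21 without OHT, 1 to 3 for siRAD21 with OHT at 48 h, 0 to 1 for the interaction at 48 h and 0 to 1 for time, and the medians at 24 h from 0.07 to 0.23 for OHT in siCtrl cells and -0.23 to -0.08 for siRAD21 without OHT. The call in the interaction appeared at 48 h without siCtrl replicate 3, siCtrl OHT replicate 2 or 3, siRAD21 replicate 2 or siRAD21 OHT replicate 1. With the replicate block the counts were as without it, 8 for OHT in siCtrl cells, 33 for OHT in siRAD21 cells and 9 for siRAD21 without OHT at 48 h, and it changed no count of calls in the other comparisons. Crossing the numbers at 24 h, where same-numbered libraries of siCtrl and siCtrl OHT cells had a correlation of -0.322, and averaging the siRAD21 OHT libraries of 48 h gave the same counts past the fold threshold, but on the adjusted p alone averaging gave 66 for OHT in siRAD21 cells, 4 for the interaction and 2 higher and 11 lower for siRAD21 with OHT at 48 h. The alternatives that changed the fold threshold were left out of the following tally. Of 1373 alternative values of 43 named results at the fold threshold of 0.5, 1330 kept direction and side of the threshold and 43 lost the call. Past a log2 fold change of 1 most calls were lost, as given above. Counts of reads limit MRPS24 and MRPL38 most.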
